A study of Mus musculus with 6 samples.

Results

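The T-box transcription factors were examined in RNA-seq data from the pharyngeal region of mouse embryos that lack *Pax9*, the gene of a paired-box factor of the pharyngeal endoderm. The members were chosen by gene symbol, namely *Tbx1*, *Tbx2*, *Tbx3*, *Tbx4*, *Tbx5*, *Tbx6*, *Tbx15*, *Tbx18*, *Tbx20* and *Mga*. Of these 10 genes, 8 had a row among the 14647 genes of the deposited table, and *Tbx4* and *Tbx6* were not analysed here. All 8 passed the filter for low values (an average RPKM of 0.5 or more), as did 13547 genes in all. RPKM scale reads to gene length and library size, and values are given as log2 RPKM unless stated.

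The 2 groups were *Pax9*-/- (*Pax9*-null) and *Pax9*+/+ (wild-type) embryos at embryonic day 9.5, with 3 libraries each. Embryos were stage-matched at 26 to 27 somites, of mixed sex, and were on a C57Bl/6J background, the null allele being constitutive and not limited to a tissue. The paper describes whole tissue, dissected from the junction of pharyngeal arches 1 and 2 down to the base of the heart, whereas the sample labels describe sorted cells and another library protocol. The paper's description was followed. From the values, 11659953 to 12689940 reads per library were recovered on the listed genes.

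T-box proteins bind DNA through a shared T-domain, and different members recognise much the same short sequence. Several activate transcription, whereas Tbx2 and Tbx3 are known mainly as repressors, and pairs of activator and repressor can compete at the same cardiac promoters. Tbx1 is required in the pharyngeal endoderm, ectoderm and mesoderm for growth of the arches and their arteries. Tbx5 and Tbx20 are cardiac factors, Tbx18 is known from the epicardium and the sinus venosus, Tbx15 from craniofacial and limb mesenchyme, and Mga joins a T-domain to a second DNA-binding domain through which it pairs with Max.

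The promoter windows of *Tbx1*, which was lower in *Pax9*-null embryos, and of *Tbx18* and *Tbx20*, which were low together in certain libraries, are given here so that their sequence can be read beside the values. They run from 250 bases before to 50 bases after a transcript start, 5′ to 3′ on the strand of the gene, and were taken from RefSeq (GRCm38.p6). *Tbx1* has 2 windows, chr16:18588850-18589149 within the gene and chr16:18590622-18590921 at its annotated start, both on the minus strand. *Tbx18* lies at chr9:87731211-87731510 and *Tbx20* at chr9:24774254-24774553, both on the minus strand. Capitals mark the letters of a motif that was searched for.
*Tbx1*, start within the gene: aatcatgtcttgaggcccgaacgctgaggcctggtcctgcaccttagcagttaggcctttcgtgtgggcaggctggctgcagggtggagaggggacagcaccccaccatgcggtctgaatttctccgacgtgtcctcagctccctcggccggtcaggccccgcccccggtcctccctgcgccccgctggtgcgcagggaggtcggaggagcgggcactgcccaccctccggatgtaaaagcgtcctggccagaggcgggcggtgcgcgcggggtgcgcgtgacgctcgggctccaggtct
*Tbx1*, annotated start: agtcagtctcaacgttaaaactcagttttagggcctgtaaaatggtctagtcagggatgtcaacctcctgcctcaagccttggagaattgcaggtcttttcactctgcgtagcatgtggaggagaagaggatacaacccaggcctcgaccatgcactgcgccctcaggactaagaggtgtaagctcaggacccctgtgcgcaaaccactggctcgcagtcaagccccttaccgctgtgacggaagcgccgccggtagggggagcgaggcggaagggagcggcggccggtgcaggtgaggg
*Tbx18*: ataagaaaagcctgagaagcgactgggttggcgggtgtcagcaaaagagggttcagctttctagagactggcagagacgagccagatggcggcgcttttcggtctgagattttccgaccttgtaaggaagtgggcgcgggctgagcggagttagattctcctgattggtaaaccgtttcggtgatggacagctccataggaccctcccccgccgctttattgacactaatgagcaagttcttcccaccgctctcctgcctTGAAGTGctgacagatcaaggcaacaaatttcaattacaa
*Tbx20*: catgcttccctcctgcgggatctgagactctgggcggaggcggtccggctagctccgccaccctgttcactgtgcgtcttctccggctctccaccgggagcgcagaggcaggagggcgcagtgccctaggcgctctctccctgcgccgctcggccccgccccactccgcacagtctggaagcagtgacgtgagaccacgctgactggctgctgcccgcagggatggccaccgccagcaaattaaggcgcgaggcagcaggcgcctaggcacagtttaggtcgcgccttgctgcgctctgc
On both strands of each window 5 motifs were searched for. The T-box half-site AGGTGTGA occurred in 1.28% of the 32851 promoter windows of this length. Its core GGTGTG, which lies within the half-site, occurred in 19.0%. The E-box CACGTG, of the kind that Max dimers bind, occurred in 7.15%. The GATA site was searched for as AGATAA and was present in 11.2%. The Nkx2-5 site TNAAGTG, where N is any base, was present in 11.5%. None of the 5 was found in the windows of *Tbx1* or *Tbx20*. *Tbx18* held an Nkx2-5 match 10 bases downstream of the start, and *Mga* (chr2:119896978-119897277, plus strand) held a core T-box match 41 bases downstream of the start. *Tbx2*, *Tbx3*, *Tbx5* and *Tbx15* had no entry.

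*Pax9* itself was lower in each *Pax9*-null library. Its reads numbered 37 to 43 in *Pax9*-null and 99 to 123 in wild-type libraries, and its log2 fold change (*Pax9*-null over wild-type) was −1.32 ± 0.19 (SE, adjusted *P* = 0.0155 by limma). 1 library stood apart from the rest. In wild-type replicate 3 the summed level of 17 cardiomyocyte markers was 91.7 RPKM, against 1655 and 1780 RPKM in the other wild-type libraries and 1505 to 1937 RPKM in the *Pax9*-null libraries. All 17 markers were lower there than in wild-type replicates 1 and 2, by a median of −4.28 on the log2 scale, and each had at least 1 read. Results are therefore given with and without this library. Erythroid markers summed to 2689 to 5012 RPKM in *Pax9*-null and 2448 to 2551 RPKM in wild-type libraries. Of these, 2 of 9 were called higher, where 14.7% of all tested genes were. Neural tube markers summed to 58.6 to 74.0 and 79.0 to 153 RPKM, of which *Tubb3* alone gave 39.5 to 53.0 and 55.7 to 118. The highest values, 153 and 118 RPKM, were those of wild-type replicate 3. Its neural tube sum was 180% of the mean of the other wild-type libraries, which had 79.0 and 91.1 RPKM. Of 8 tested, 3 were called lower, where 12.0% of all tested genes were. The 3 were the neuronal genes *Elavl3*, *Nefm* and *Cntn2*. The tested progenitor genes *Sox1*, *Pax6*, *Olig2* and *Nkx6-1* had log2 fold changes of −0.05 to 0.58, and none was called. The part of these tissues in the results was not tested.

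Over the 8 T-box genes, *Tbx1* and *Tbx2* were lower in *Pax9*-null embryos, none was called higher, and 6 were not called. A gene was called at an adjusted *P* of at most 0.1 by limma, and among all 13547 tested genes 26.7% were called, 12.0% lower and 14.7% higher. Without adjustment 3 of the 8 had a *P* below 0.05, all with a lower mean in *Pax9*-null embryos, and limma voom on the recovered reads also called 2 lower and none higher. The median log2 fold change was −0.11 for the T-box genes and 0.00 for all tested genes. *Tbx1* and *Tbx2* were also the members in which the genotypes were fully separated, 2 of 8, against 41.9% of all tested genes. The share of T-box genes called lower, 25.0%, was above that of all tested genes but rests on 2 genes, and the shares called in either direction and separated were not above it. Without wild-type replicate 3, *Tbx2* alone was called lower, where 6.64% of all tested genes were.

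**Figure D1:**
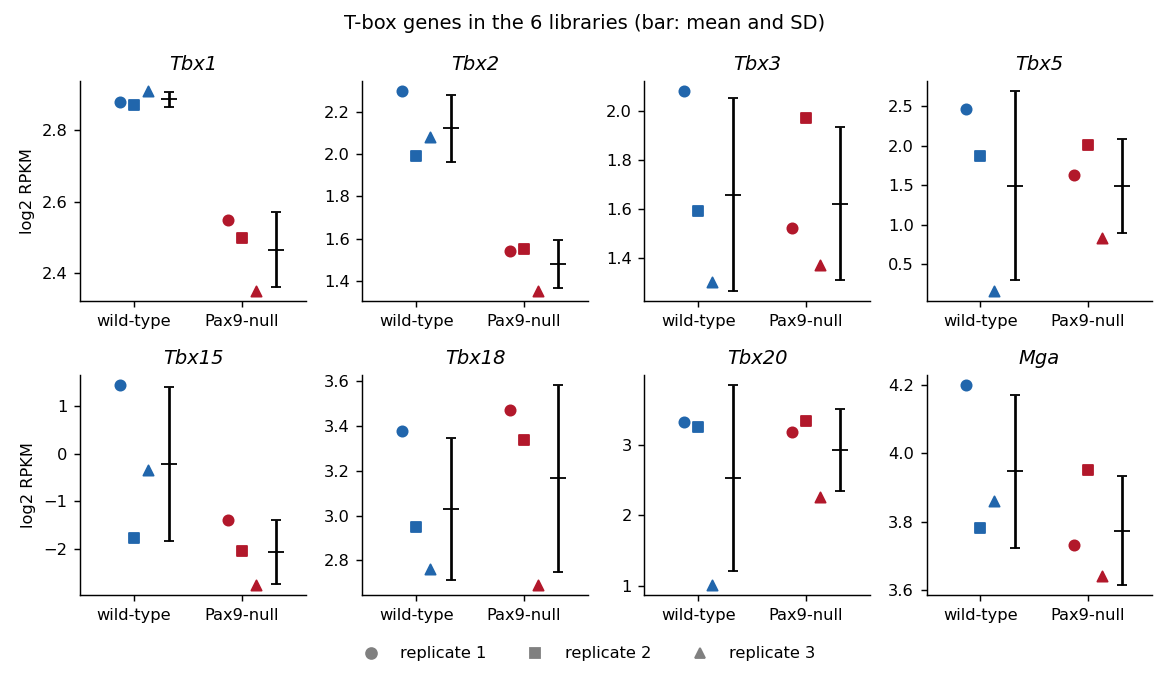
Level of each T-box gene in log2 RPKM (y axis, with its own scale in each panel) in the 3 wild-type (blue) and 3 *Pax9*-null (red) libraries, with the mean and SD in black. *Tbx1* and *Tbx2* are the panels where the genotypes do not overlap, and replicate 3 (triangles) is the lowest library of both genotypes for *Tbx3*, *Tbx5*, *Tbx18* and *Tbx20*.

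In wild-type embryos *Mga* had the highest level per length of the 8 genes, with a mean of 15.5 RPKM. It was followed by *Tbx18* (8.30 RPKM), *Tbx1* (7.40 RPKM), *Tbx20* (7.23 RPKM), *Tbx2* (4.37 RPKM), *Tbx5* (3.43 RPKM), *Tbx3* (3.23 RPKM) and *Tbx15* (1.27 RPKM). By mean log2 level *Tbx3* came before *Tbx5*, and in that order only *Mga* was apart from its neighbour, whereas the library ranges of all other neighbours overlapped. In *Pax9*-null embryos *Mga* was again apart from *Tbx18*, and *Tbx1*, below *Tbx20* by mean log2 level, was apart from *Tbx3*. In wild-type replicates 1 and 2 *Tbx20* also lay above *Tbx1* (3.33 and 3.26 against 2.88 and 2.87). In replicate 3 *Tbx20* lay below *Tbx1* in both genotypes (1.01 against 2.91 in wild-type, 2.26 against 2.35 in *Pax9*-null). The level of *Tbx1* depends on its counted length. Whole reads came out at a length of 1777 bp, whereas its GENCODE M21 exons cover 3517 bp, which would put its level correspondingly lower.

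*Tbx1*, the pharyngeal member and the gene central to 22q11 deletion syndrome, fell to 74.7% of its wild-type level. The gene (ENSMUSG00000009097, GRCm38 chr16:18580979-18590671, minus strand) had levels of 2.55, 2.5 and 2.35 in the *Pax9*-null libraries and 2.88, 2.87 and 2.91 in the wild-type libraries. The highest *Pax9*-null library lay below the lowest wild-type library, and the wild-type libraries were almost level. The means were 2.47 ± 0.10 and 2.89 ± 0.02 (SD, n = 3). The log2 fold change was −0.42 ± 0.10 (SE, 95% interval −0.66 to −0.18, adjusted *P* = 0.0473 by limma), and these values rest on 106 to 167 reads per library. The exact permutation test gave *P* = 0.1, the smallest it can give with 3 libraries against 3. The call was lost without *Pax9*-null replicate 1 (adjusted *P* = 0.157 by limma), without *Pax9*-null replicate 3 (0.13) and without wild-type replicate 3 (0.103), with log2 fold changes of −0.46, −0.36 and −0.41. *Tbx1* stood at 102% in wild-type replicate 3 relative to the other wild-type libraries, so that it was not low in the library that was low in cardiomyocyte markers.

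*Tbx2*, a repressor of chamber genes in the atrioventricular canal and outflow tract that is also active in arch mesenchyme, fell to 64.2% of wild-type. Levels of this gene (ENSMUSG00000000093, chr11:85832551-85841948, plus strand) were 1.54, 1.55 and 1.35 in *Pax9*-null and 2.30, 1.99 and 2.08 in wild-type libraries. Again the libraries of the genotypes did not overlap (exact permutation *P* = 0.1). The means were 1.48 ± 0.11 and 2.12 ± 0.16 (SD, n = 3), the log2 fold change was −0.64 ± 0.14 (SE, 95% interval −0.97 to −0.31), and the adjusted *P* was 0.0420 by limma. Each library held 108 to 226 reads of the gene. The call held without wild-type replicate 3 (−0.66, adjusted *P* = 0.0754 by limma), where *Tbx2* stood at 95% of the other wild-type libraries. Without *Pax9*-null replicate 1 or 3 the adjusted *P* was 0.153 and 0.128.

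*Tbx1* and *Tbx2* are both rich in G and C, with 62.8% and 63.2% of the bases of their longest annotated transcript. Among the 1353 genes of the highest GC decile (57.6% to 73.7%), the median log2 fold change was −0.24 and 27.1% were called lower. In this decile 32.3% of genes had a lower log2 fold change than *Tbx1*, and 13.4% a lower one than *Tbx2*. After removal of length and GC trends within libraries, the log2 fold changes were −0.31 (adjusted *P* = 0.245 by limma) for *Tbx1* and −0.25 (0.420) for *Tbx2*, and neither gene was called.

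**Figure D2:**
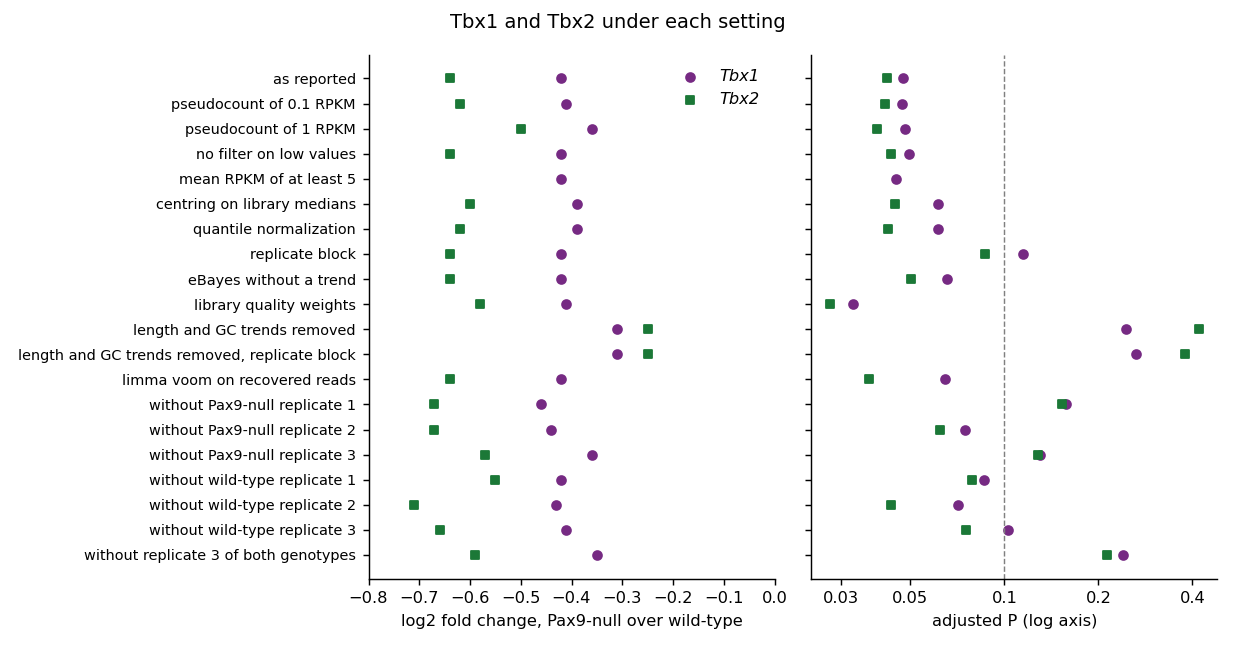
Log2 fold change (left) and adjusted *P* on a log axis (right) of *Tbx1* (circles) and *Tbx2* (squares) under each setting, with the threshold of 0.1 as a dashed line. Both genes stay below 0 throughout, *Tbx2* is absent where a mean of at least 5 RPKM was required, and the points furthest to the right on the *P* axis are those with length and GC trends removed.

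*Tbx3*, the closest relative of *Tbx2* and a repressor of the conduction system, was not called. Its levels (ENSMUSG00000018604, chr5:119670669-119684724, plus strand) were 1.52, 1.97 and 1.37 in *Pax9*-null and 2.08, 1.59 and 1.30 in wild-type libraries, and the genotypes overlapped. The log2 fold change was −0.04 ± 0.24 (SE, 95% interval −0.60 to 0.52, adjusted *P* = 0.928 by limma). The interval reaches nearly as low as the value of *Tbx2*, and whether these genes differed in response was not tested. *Tbx3* shares exonic sequence with the antisense gene *Tbx3os1*, which is not in the table. Reads were assigned with the default settings of featureCounts, which ignore strand. How the shared sequence affects the count of *Tbx3* was not tested. In the genome *Tbx3* and *Tbx5* are neighbours, 148 kb apart, and *Tbx2* lies 44.5 kb from *Tbx4*.

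The heart members *Tbx5* and *Tbx20* varied more between libraries of a genotype than between genotypes, as did *Tbx3* and *Tbx18*. *Tbx5*, a factor of the atria and left ventricle (ENSMUSG00000018263, chr5:119832668-119885219, plus strand), had levels of 1.63, 2.01 and 0.84 in *Pax9*-null and 2.46, 1.87 and 0.16 in wild-type libraries. Replicate 3 was the lowest library of each genotype. Between genotypes it differed by 0.00 ± 0.57 on the log2 scale (SE, 95% interval −1.32 to 1.32, adjusted *P* = 1.0 by limma). Without wild-type replicate 3 it was −0.67, with an interval of −1.46 to 0.12 and an adjusted *P* of 0.219.

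*Tbx20*, needed for growth of the heart chambers (ENSMUSG00000031965, chr9:24718138-24774303, minus strand), followed the same pattern. Levels were 3.18, 3.34 and 2.26 in *Pax9*-null and 3.33, 3.26 and 1.01 in wild-type libraries. Apart from replicate 3 the libraries of both genotypes lay close together. The log2 fold change was 0.39 ± 0.61 (SE, 95% interval −1.02 to 1.79, adjusted *P* = 0.677 by limma) and turned to −0.37 (−1.04 to 0.30, adjusted *P* = 0.406) without wild-type replicate 3.

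*Tbx18* (ENSMUSG00000032419, chr9:87702800-87731260, minus strand) had levels of 3.47, 3.34 and 2.69 in *Pax9*-null and 3.38, 2.95 and 2.76 in wild-type libraries. Replicate 3 was again the lowest library of each genotype, by less than for *Tbx5* and *Tbx20*. The log2 fold change of 0.14 ± 0.23 (SE, 95% interval −0.40 to 0.68) did not pass the test (adjusted *P* = 0.705 by limma), nor did that of 0.00 without wild-type replicate 3 (−0.56 to 0.56, adjusted *P* = 0.997). Its exons overlap those of *D030062O11Rik* on the other strand, which is not in the table.

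**Figure D3:**
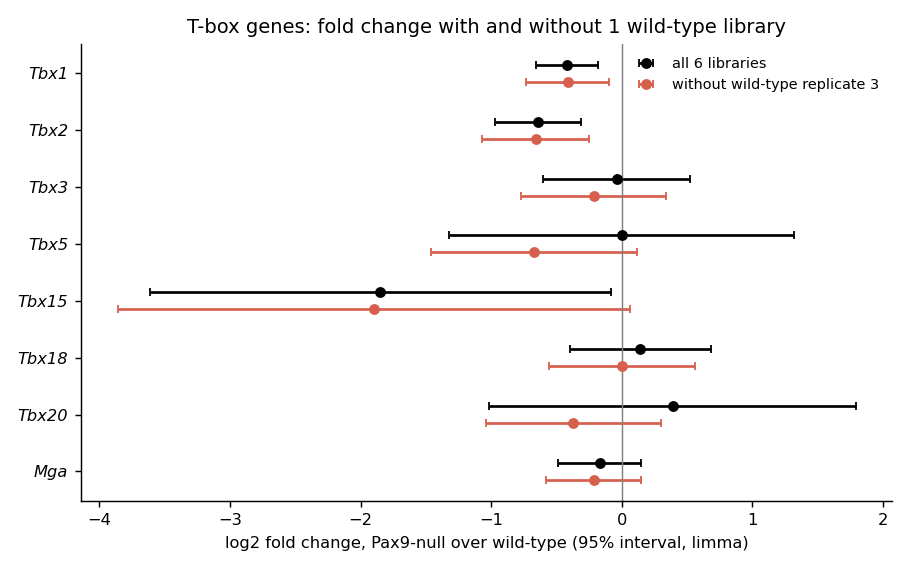
Log2 fold change of each T-box gene, *Pax9*-null over wild-type (x axis), with its 95% interval from limma, for all 6 libraries (black) and without wild-type replicate 3 (red). The intervals of *Tbx1* and *Tbx2* lie below 0 in both fits, whereas *Tbx5* and *Tbx20* move to the left when the library is left out.

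The members that moved most with the markers of heart tissue were *Tbx20* and *Tbx5*. In wild-type replicate 3 they stood at 20.5% and 24.3% of the mean of the other wild-type libraries, and only 0.790% and 0.989% of all tested genes departed as far downward. The cardiomyocyte markers stood at a median of 5.11% there, from 0.212% for the ventricular light chain gene *Myl2* to 33.8% for the titin gene *Ttn*, so that *Tbx5* and *Tbx20* were retained more than most contractile genes. The other members stood at 52.8% (*Tbx15*), 68.4% (*Tbx3*), 74.7% (*Tbx18*), 90.4% (*Mga*), 95% (*Tbx2*) and 102% (*Tbx1*). In bulk tissue, fewer cells of a type and less RNA per cell cannot be told apart.

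*Pax9*-null replicate 3 showed another picture. All 8 T-box genes were lower there than in *Pax9*-null replicates 1 and 2, while the median of all tested genes differed by 0.01 on the log2 scale. *Tbx15* stood at 47.4%, *Tbx20* at 50.1%, *Tbx5* at 50.3% and *Tbx18* at 61.0% of the other *Pax9*-null libraries, and at most 1.18% of tested genes departed as far downward as any of these. Of the 17 cardiomyocyte markers 15 were lower in this library too, at a median of 87.6% and from 62.1% for the calcium release channel gene *Ryr2* to 188% for *Ttn*. Genes of the epicardium and sinus venosus stood at a median of 62.5%, and the lowest, the sinoatrial factor *Shox2*, at 42.9%. Of the cardiac partners of T-box proteins, *Gata4* and *Gata6* stood at 51.4% and 51.0% in *Pax9*-null replicate 3 and *Nkx2-5* at 98.5%, whereas in wild-type replicate 3 they stood at 8.26%, 34.9% and 6.89%. *Shox2* and these 3 partners were named after their values were seen.

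**Figure D4:**
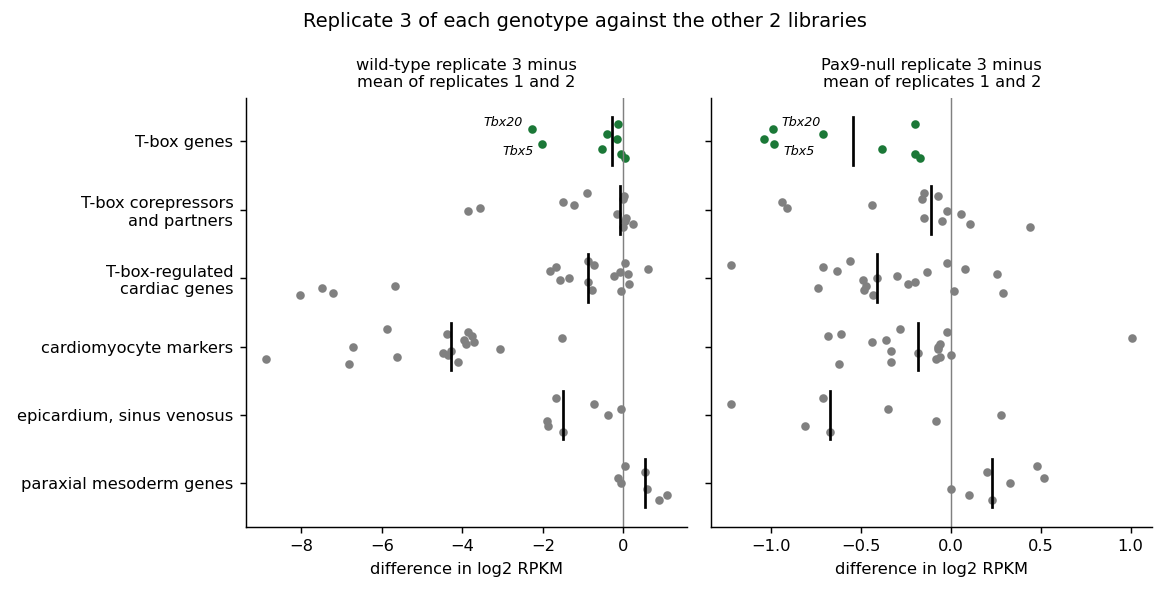
Difference in log2 RPKM between replicate 3 and the mean of replicates 1 and 2 (x axis, with a different scale in each panel), for wild-type (left) and *Pax9*-null (right) libraries. Each point is a gene and black bars are list medians, which for cardiomyocyte markers lie at −4.28 on the left and −0.18 on the right, and for the T-box genes (green) at −0.28 and −0.54.

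*Tbx15*, a mesenchymal factor (ENSMUSG00000027868, chr3:99240381-99354259, plus strand), had the lowest level and the widest spread. Its 16, 10 and 6 reads in *Pax9*-null libraries and 129, 13 and 37 reads in wild-type libraries gave levels of −1.40, −2.04 and −2.76 against 1.45, −1.78 and −0.33. Wild-type replicate 1 was far above the others, and wild-type replicate 2 lay within the *Pax9*-null range. The log2 fold change was −1.85 ± 0.76 (SE, 95% interval −3.61 to −0.08, adjusted *P* = 0.13 by limma, exact permutation *P* = 0.2). It passed the threshold without wild-type replicate 2 (−2.62, adjusted *P* = 0.0436). The limb factors *Lmx1b* and *Lhx2*, named after their values were seen, were also highest of the wild-type libraries in replicate 1. They stood at 0.89 against −0.57 and −0.37 and at 1.03 against −1.09 and −1.43. *Lhx2* belongs to the list of genes linked to Tbx1. In *Pax9*-null replicate 2 it was raised too (0.26 against −1.31 and −1.40), unlike *Tbx15*. *Prrx2*, the most abundant limb bud marker, was lowest in wild-type replicate 1 (4.17 against 4.49 and 4.27). The other tested limb bud markers were highest there among wild-type libraries. As a whole, limb bud markers summed to 39.7 to 43.1 RPKM in *Pax9*-null and 38.8 to 48.4 RPKM in wild-type libraries, and 1 of 7 had no read in wild-type replicate 3. Of the 6 tested, limma and limma voom called none, and 2 had an unadjusted *P* below 0.05. Their part in the *Tbx15* value was not tested.

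*Mga* (ENSMUSG00000033943, chr2:119897228-119969581, plus strand), which acts with Max and in a variant Polycomb complex called PRC1.6, was the best-covered member, with 2243 to 3575 reads per library. Levels were 3.73, 3.95 and 3.64 in *Pax9*-null and 4.20, 3.78 and 3.86 in wild-type libraries, and they overlapped. A log2 fold change of −0.17 ± 0.14 (SE, 95% interval −0.49 to 0.15) did not pass the test (adjusted *P* = 0.403 by limma). Of 20 tested genes linked to Max or to PRC1.6, 4 rose and 1 fell, and the list's median was −0.04. These 5 are 25.0% of the list, near the 26.7% of all tested genes, and with length and GC trends removed limma called none. The rises were in the PRC1.6 genes *Rnf2*, a ubiquitin ligase (0.38, adjusted *P* = 0.0572 by limma), *Cbx3*, a heterochromatin protein (0.36, 0.0513), *Yaf2* (0.35, 0.0372) and *Pcgf6* (0.27, 0.0701). *L3mbtl2*, another subunit of the complex, fell by 0.33 (0.0949). The deacetylase gene *Hdac2*, the most abundant of the list with *Rnf2*, had a log2 fold change of 0.23 and was not called (0.106). Without wild-type replicate 3, 2 were called higher and none lower. In that fit 2141 of all 13547 tested genes were called, and 6.64% of all were called lower.

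Brachyury, encoded by *T*, was the only other T-box gene with a row, of the 7 further family genes looked up. It had 21 to 43 reads per library and a log2 fold change of 0.27 ± 0.29 (SE, adjusted *P* = 0.543 by limma). None of 12 tested corepressors and partners of T-box proteins was called by limma, with a median of 0.03. At an unadjusted *P* below 0.05 there was 1, the corepressor gene *Tle3* (−0.36, adjusted *P* = 0.126), which limma voom called lower (0.0988). The most abundant, *Smad4* and the Groucho-related *Aes*, had log2 fold changes of 0.12 (adjusted *P* = 0.279) and −0.27 (0.155). Among 7 tested genes of the paraxial mesoderm, where *Tbx6* acts, none was called by limma or limma voom or had an unadjusted *P* below 0.05, and the median was −0.26. The most abundant of these, the somite factor *Meox1* and the fringe gene *Lfng*, had log2 fold changes of 0.04 (adjusted *P* = 0.874) and −0.30 (0.299).

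Of 26 tested genes linked to Tbx1 in the pharynx, 5 fell and 2 rose, and the median was 0.01. These 7 are 26.9% of the list, near the 26.7% of all tested genes, and with length and GC trends removed *Pax9* alone was called. Besides *Pax9*, falls were in *Flt4*, a receptor of lymphatic and arch endothelium (−0.80, adjusted *P* = 0.0715 by limma), *Chd7*, the chromatin remodeler of CHARGE syndrome (−0.77, 0.0549), the homeobox gene *Gbx2* (−0.43, 0.0807) and the coactivator gene *Eya1* (−0.37, 0.0830). *Hes1*, a Notch effector, rose by 0.48 (0.0501), as did *Tcf21* of the branchial muscle precursors, by 0.40 (0.0971), though its libraries overlapped. *Crkl*, the most abundant with *Hes1*, had a log2 fold change of −0.22 (0.146). Markers of endothelium, the tissue of *Flt4*, summed to 47.0 to 63.8 RPKM in *Pax9*-null and 52.7 to 98.3 RPKM in wild-type libraries. Of 8 tested, 2 were called lower and 1 higher, where 12.0% and 14.7% of all tested genes were. With length and GC trends removed, *Sox17* was the only endothelial marker called. Pharyngeal endoderm markers summed to 128 to 143 RPKM in *Pax9*-null and 104 to 141 RPKM in wild-type libraries. Of 8 tested, 1 was called lower, which was *Pax9*, against the same 12.0% of all tested genes. Most of the endoderm sums came from *Sox2*, *Cldn6* and *Epcam*, with means of 50.5, 42.5 and 34.8 RPKM in *Pax9*-null embryos. In wild-type replicate 1, whose sum was 104 RPKM, *Sox2* stood at 29.4 RPKM, against 48.2 and 52.6 RPKM in the other wild-type libraries. *Cldn6* and the neural tube markers *Sox1* and *Pax6* were also lowest there among wild-type libraries. The tissue that the *Sox2* reads came from was not tested. *Pax1* was separated between genotypes but not called (−0.74, adjusted *P* = 0.101 by limma). *Foxa1* stood at −0.32, *Foxa2* at 0.31 and *Nkx2-3* at 0.33, and none of these was called. Without wild-type replicate 3, 3 of the 26 genes linked to Tbx1 were called lower and 1 higher. In that fit 2141 of all 13547 tested genes were called, and 6.64% of all were called lower.

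Of 19 tested cardiac genes regulated by T-box factors, 1 fell and none rose. The share called was 5.26%, below the 26.7% of all tested genes. Without wild-type replicate 3 none was called lower and 1 higher, the natriuretic peptide gene *Nppb* (0.55, adjusted *P* = 0.0869 by limma). In that fit 2141 of all 13547 tested genes were called. The gene that fell was the calcium channel gene *Cacna1g* (−0.79, adjusted *P* = 0.0655 by limma), which stood at 152% in wild-type replicate 3 and was not called without it (−0.59, 0.139). The median log2 fold change of the list was 0.13 and turned to −0.12 without that library. The most abundant, *Gja1* and *Mycn*, had log2 fold changes of 0.04 (0.788) and 0.25 (0.225). *Nppa*, a chamber gene repressed by Tbx2 and activated by Tbx5, had no read in wild-type replicate 3 and up to 210 in the others. Of the 17 cardiomyocyte markers none was called by limma or limma voom, and none had an unadjusted *P* below 0.05, their median was 1.07, and *Myl7* and *Actc1* stood at 1.78 and 1.07. Without wild-type replicate 3 the median was −0.17 and 5 were called lower, all sarcomere genes (*Myh6*, *Myh7*, *Tnnt2*, *Actn2* and *Mybpc3*). In that fit 6.64% of all tested genes were called lower. Of the 17 markers 11 had a log2 fold change below 0. The sarcomere genes *Myl2*, *Myl3*, *Myl4*, *Myl7* and *Tnni3* lay above 0, at 0.14 to 0.28, and were not called. Of 7 epicardial and sinus venosus markers none was called by limma or limma voom, none had an unadjusted *P* below 0.05, and they summed to 31.1 to 53.5 RPKM in *Pax9*-null and 29.5 to 52.6 RPKM in wild-type libraries. Across the pathway lists together 13 of 85 genes were called, a smaller share than the 26.7% of all tested genes. Without *Pax9*-null replicate 1 or 3, 1 of the 85 was called. In those fits 301 and 175 of all 13547 tested genes were called.

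The genes most like 3 of the members were found by the root mean square difference of centred log2 values over the 6 libraries. Nearest to *Tbx1* were *Cxx1b* (0.0261), the synaptotagmin gene *Syt9* (0.0520) and *Got2*, a mitochondrial aminotransferase (0.0542), with log2 fold changes of −0.44, −0.35 and −0.41. *Cxx1b* belongs to a family of near-identical copies, so that its reads are uncertain. Nearest to *Tbx5* were *Ppargc1a*, a coactivator of mitochondrial genes (0.140), the mesothelial gene *Upk3b* (0.167) and *Fbxo32*, a muscle ubiquitin ligase (0.193). Nearest to *Tbx20* were *Clic5* (0.122), *Popdc3*, a Popeye-domain gene of striated muscle (0.123), and again *Ppargc1a* (0.163). All of these were chosen for their likeness over these libraries, so that a shared pattern follows from the choice.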

How the data were processed

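The 6 RNA-seq libraries, 3 of each genotype, were made from pharyngeal tissue. The authors trimmed adaptors, kept uniquely aligned, non-redundant reads, evened out library sizes by sub-sampling, mapped reads to GRCm38 and summarised them per gene. Submitters' processing notes name Trimmomatic 0.32, STAR 2.5.1a and featureCounts 1.5.1. The authors deposited log2 RPKM values. Whole reads were recovered from these values as an alternative input, and were whole within 0.05 reads for 82.7% of values at the GENCODE M21 length. With a length search for the others, 14601 of 14647 genes had reads recovered. No column belonged to a sample outside the labels.

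Genes averaging 0.5 RPKM or more were tested two-sided with limma 3.58.1 (R 4.3.3; lmFit, eBayes with a variance trend, no covariates), with Benjamini-Hochberg adjustment over all 13547 genes, and called at 0.1. The exact permutation test of single genes has 20 allocations. The paper gives 3 embryos of each genotype, as many as libraries. *P* values measure the spread between these libraries, and read numbers carry counting error only.

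Members and gene lists were chosen with earlier results of these data known. Each member was named. From each pathway list up to 5 called genes without overlap, by size, and the 2 most abundant were named, and for *Tbx1*, *Tbx5* and *Tbx20* the 3 most similar genes. Further genes named are marked in the text or belong to a stated count or range. *Shox2*, *Hcn4*, *Nkx2-5*, *Fgf10*, *Pax9* and *Foxa2* stand in 2 lists. Motifs were matched as exact letters.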

Additional observations from a re-analysis of the deposited data

How the results depend on the processing

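Over 20 alternatives, *Tbx1* and *Tbx2* kept a log2 fold change below 0, from −0.46 to −0.31 (adjusted *P* 0.0327 to 0.263 by limma) and from −0.71 to −0.25 (0.0276 to 0.420). Of the T-box genes, 2 were called as reported. The number was 0 with length and GC trends removed, with or without the replicate block, 0 without replicate 3 of both genotypes (chosen after seeing the data), and 1 where a mean of at least 5 RPKM was required, since *Tbx2* was then not tested. With 1 library left out it ran from 0 to 3, being 0 without *Pax9*-null replicate 1 or 3, 1 without wild-type replicate 3, and 3, *Tbx15* included, when wild-type replicate 2 was left out. Of the pathway list genes 13 were called as reported, 2 with the replicate block, 20 with library quality weights, 1 with length and GC trends removed, 1 with that and the replicate block, 0 without replicate 3 of both genotypes, 2 at a threshold of 0.05, and 1 to 14 with 1 library left out. The number of cardiomyocyte markers called ran from 0 to 5, the latter without wild-type replicate 3. Over all genes 3611 were called as reported, 1377 with the replicate block, 379 with length and GC trends removed, 188 with both, 1799 and 2141 when wild-type replicate 1 or 3 was left out, 301 and 175 when *Pax9*-null replicate 1 or 3 was, and 126 without replicate 3 of both genotypes. *Pax9* was −1.21 in that last fit (adjusted *P* = 0.162 by limma) and passed in the 6 fits with 1 library left out.

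The sign turned for *Tbx5* (0.00 as reported) to −0.01 and −0.05 with pseudocounts of 0.1 and 1 RPKM, to just below 0.00 with limma voom, to −0.34 without replicate 3 of both genotypes, and ran from −0.67 to 0.49 with 1 library left out. For *Tbx3* it turned to 0.09 with library quality weights and to 0.35 with length and GC trends removed, with or without the replicate block, and ran from −0.21 to 0.17 with 1 library left out. For *Tbx18* these ran from −0.01 to 0.37 and for *Tbx20* from −0.37 to 0.79, and *Tbx20* was −0.04 without replicate 3 of both genotypes. The cause was not tested. Whether same-numbered libraries of the genotypes share more than a number was not tested. Their deviations from the genotype means correlated at −0.02, −0.17 and 0.26. The replicate 3 libraries correlated best with each other, but not every library correlated best with its own number. With the replicate block *Tbx1* had an adjusted *P* of 0.115, *Tbx2* of 0.087 and *Tbx15* of 0.0964 by limma. Depth limits *Tbx15* most, with 6 to 129 reads per library.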
